A study of Rattus norvegicus with 60 samples.

Results

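The response of mesenteric fat to stroke was followed in male Sprague-Dawley rats aged 5 months, in 14 of the 60 RNA libraries of a study of adipose tissue and liver. The 14 were all the adipose libraries with the male title codes MC and ME: 7 from animals dissected 2 days after middle cerebral artery occlusion, which blocks a main artery of the brain, and 7 from stroke-naive littermates. Of the stroke animals, 3 had dams that breathed room air (controls) and 4 had dams that breathed ethanol vapour for 12 days of gestation, between days 8 and 20 (prenatal alcohol exposure, PAE). The naive animals were likewise 3 controls and 4 PAE. No sham operation is described, so surgery and anaesthesia cannot be told apart from the brain lesion. Which animals shared a litter is not given. The p-values below measure the spread between these animals, with any littermates counted as separate animals.

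Mesenteric fat lies along the vessels of the gut. Its adipocytes store triglyceride, release fatty acids by lipolysis and secrete adipokines, and the tissue also holds stromal cells, vessels, nerves, mesothelium and immune cells. A brain lesion can reach it through stress hormones, sympathetic nerves and reduced food intake, and through circulating cytokines that induce acute phase genes.

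The libraries held 9.81 M (mega) to 25.4 M gene counts (median 20.1 M), and 5.41 M to 21.3 M once ribosomal RNA (rRNA) was left out. Nuclear rRNA took 0.469% to 2.44% of counts in the 4 PAE stroke males, 12.6% to 17.5% in the 3 control stroke males, 10.6% to 22.9% in the control naive males and 0.663% to 28% in the PAE naive males. Its mean was 14.2% in naive and 7.43% in stroke animals (exact permutation within exposure, two-sided, p = 0.12, adjusted over 3 shares 0.191). The adipocyte markers were abundant in every library, with a summed level of 13782 to 31530 CPM (counts per M of the scaled library) over 12 genes, as the tissue label states. Of these, 2 libraries stood apart by lymphocyte transcripts. The 12 B cell markers summed to 1147 CPM in PAE stroke male 2, against 7.88 to 52.8 CPM in the other stroke males and 8.81 to 23.9 CPM in the naive males. The 17 T and NK cell markers summed to 405 CPM in control naive male 3 and 378 CPM in PAE stroke male 2, against 113 to 187 CPM elsewhere. Control naive male 3 was not set apart by B cell markers (23.9 CPM). Its macrophage markers summed to 3926 CPM, against 1076 to 1661 CPM in the other naive males. Each result below was also computed without these 2 animals.

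**Figure D1:**
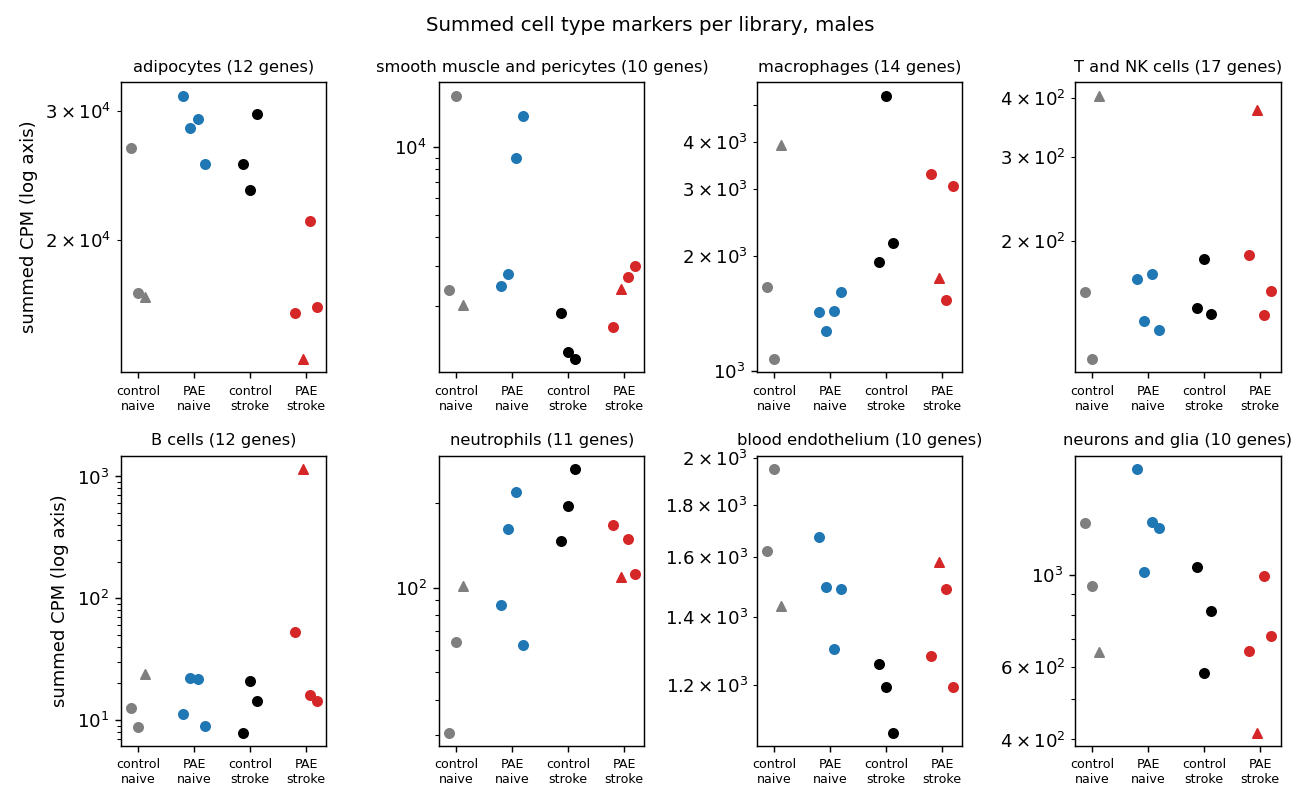
Summed CPM (log axis) of 8 cell type marker lists in each male library, by prenatal exposure and stroke status; each point is 1 animal, and triangles are control naive male 3 and PAE stroke male 2. The triangles lie at 405 and 378 CPM for T and NK cells, and smooth muscle markers reach 16900 CPM in naive libraries but at most 2998 CPM after stroke.

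The comparison of all 7 stroke with all 7 naive males, with exposure as a covariate, asked what the tissue's genes did after stroke. Of 18455 genes tested, 166 passed an adjusted p of 0.05 (0.899%), 59 higher (0.32%) and 107 lower (0.58%). All 166 had the same sign in control and in PAE males. The calls were made on these same animals together, so the shared sign is not separate support. No gene passed in either exposure alone. Of the 166, 61 changed over 2-fold, 16 up and 45 down. The 2 groups of 7 did not overlap for 92 of the 166, and for 165 genes of all tested (0.894%), 73 higher after stroke (0.396%) and 92 lower (0.499%). Without the 2 lymphocyte-rich libraries 443 genes passed (2.37% of 18723), 229 higher (1.22%) and 214 lower (1.14%); they held 148 of the 166, and none of the 166 changed sign. Leaving out 1 library gave between 35 genes (without control naive male 1) and 310 (without control naive male 3), and 28 genes passed in all 14 such fits. With the nuclear rRNA share as a covariate 45 genes passed, 43 of them among the 166. Of the 25 called genes that the naming rule gave, 9 kept their call under it (Gulo, Gprin3, Ctnnd2, Aldh1a1, Adamts16, Irs2, Trem3, Cpt1b and Dgat2) and the others lost it.

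Gulo, the last enzyme of vitamin C synthesis, which rats retain, fell most of the genes named here. Its level was 9.87 to 49.7 CPM in the naive males (median 21.1) and 0.532 to 2.51 CPM in the stroke males (median 1.64). Every stroke library lay below every naive one. The fall was 19.9-fold (log2 -4.31 ± 0.384 SE, edgeR adjusted p = 0.000526). It was -4.72 in control and -4.08 in PAE males, and it passed in all 14 fits that left out 1 library.

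Of the 28 genes that passed in all 14 fits, 22 fell. Of these, Gprin3 and Adamts16 were named by the rule for large decreases, and Frzb, Btnl9, Fat4 and Cplx2 were chosen after their values were seen. Frzb, which encodes a secreted Wnt antagonist, was at 112 to 291 CPM in naive (median 165) and 41.8 to 88.9 CPM in stroke males (median 71.4), with no overlap. It fell 2.66-fold (log2 -1.41 ± 0.207 SE, edgeR adjusted p = 0.0136). Gprin3, named for its part in neurite outgrowth, ranged from 145 to 1162 CPM in naive males (median 337) and from 14.8 to 75.9 CPM after stroke (median 46.7). The groups did not overlap, and the fall was log2 -2.99 ± 0.446 SE (edgeR adjusted p = 0.0136). Btnl9, a butyrophilin-like gene, lay between 56.7 and 88.0 CPM in naive males (median 85.5) and between 27.7 and 49.8 CPM in stroke males (median 36.2). Again no stroke library reached the naive range (log2 -1.07 ± 0.119 SE, edgeR adjusted p = 0.00217). Fat4, a giant protocadherin, and Cplx2, a SNARE-binding complexin, fell by 0.97 and 0.89 on the log2 scale, and Adamts16, an extracellular metalloprotease, fell by 2.04. All 6 genes passed in each of the 14 fits and without the 2 libraries.

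Some of the fallen genes are imprinted, that is, expressed from 1 parental copy. Peg3, a zinc finger gene, was at 748 to 1341 CPM in naive males (median 936) and 396 to 692 CPM in stroke males (median 470). Zim1, its neighbour in the same imprinted domain, was at 37.1 to 142 CPM (median 76.2) and 13.6 to 35.2 CPM (median 23.6). Neither gene's groups overlapped. Peg3 fell 2.01-fold (log2 -1.0 ± 0.155 SE) and Zim1 3.80-fold (log2 -1.93 ± 0.296 SE), both with an edgeR adjusted p of 0.0136 and both in all 14 fits. Igf2, the paternally expressed growth factor, fell from 36.5 to 107 CPM (median 62.1) to 22.6 to 32.1 CPM (median 28.4). Its groups did not overlap either (log2 -1.18 ± 0.213 SE, edgeR adjusted p = 0.0256), and it passed in 9 of 14 fits. In a list of imprinted genes put together after the values were seen, these 3 of 17 tested were called lower and none higher. Of all genes tested, 0.58% were called lower. The list's median log2 change was -0.32, against 0.02 over all genes, and its values ran from -1.93 to 2.84. Without the 2 lymphocyte-rich libraries 4 of 17 were called lower and 1 higher (1.14% and 1.22% of all genes), with a median of -0.23. With the rRNA covariate Peg3 kept its call and Zim1 did not (adjusted p = 0.0539; 7.21e-08 to 0.189 over all alternatives).

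Notch signalling passes between touching cells, from a ligand such as Dll1 to a receptor whose cut tail joins RBPJ on DNA. Dll1 was at 11.3 to 20.4 CPM in naive males (median 15.4) and 4.85 to 9.06 CPM after stroke (median 7.27), without overlap. It fell by 1.11 on the log2 scale (± 0.170 SE, edgeR adjusted p = 0.0136), in all 14 fits. Nrarp, a Notch target that damps the pathway, went from 9.28 to 24.9 CPM to 6.06 to 8.55 CPM without overlap (log2 -0.97 ± 0.185 SE, edgeR adjusted p = 0.0321, 5 of 14 fits). Dtx4, an E3 ligase of the Deltex family, fell by 0.82 on the log2 scale with overlapping groups (4 of 14 fits). These 3 of 20 Notch genes were called lower, against 0.58% of all genes tested, and none higher. Of the 20, 19 had a negative value, and the median was -0.27, against 0.02 over all genes. This list too was put together after the values were seen, so its counts are partly set by that choice. Markers of blood endothelium, a cell type that uses Notch, were negative in 10 of 10 tested, 1 of them (Tek, log2 -0.49, adjusted p = 0.037) called. Their summed level was 1301 to 1951 CPM in naive and 1078 to 1583 CPM in stroke males. Their median was -0.47 in control and -0.05 in PAE males. Smooth muscle and pericyte markers, which include the receptor gene Notch3, were negative in 10 of 10 (median -1.63) with none called. The part of either cell type in the Notch values was not tested. In bulk tissue, fewer cells of a type and less RNA per cell cannot be told apart.

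The stretch of 250 bases before the start of 4 genes that passed in all 14 fits is shown because 2 of them, Peg3 and Zim1, are neighbours that moved together, Dll1 stands for the Notch genes, and Trem3, described below, rose. The sequences are RefSeq's, build GRCr8, which is not the build the reads were mapped to: Peg3 chr1:76130744-76130993 (plus strand), Zim1 chr1:76164958-76165207 (plus strand), Dll1 chr1:64993275-64993524 (minus strand) and Trem3 chr9:20257615-20257864 (minus strand). They are written 5′ to 3′ on the gene's strand. Capitals mark TGACGTCA (the CREB-type palindrome), TGGGAA (the core bound by RBPJ) and CCAAT, searched on both strands, so that they also appear as TTCCCA and ATTGG; no 2 of the matches overlap.
Peg3: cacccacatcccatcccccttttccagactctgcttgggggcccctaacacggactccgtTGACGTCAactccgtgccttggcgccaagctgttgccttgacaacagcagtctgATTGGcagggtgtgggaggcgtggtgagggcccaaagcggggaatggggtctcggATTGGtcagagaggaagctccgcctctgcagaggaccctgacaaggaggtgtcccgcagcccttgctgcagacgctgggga
Zim1: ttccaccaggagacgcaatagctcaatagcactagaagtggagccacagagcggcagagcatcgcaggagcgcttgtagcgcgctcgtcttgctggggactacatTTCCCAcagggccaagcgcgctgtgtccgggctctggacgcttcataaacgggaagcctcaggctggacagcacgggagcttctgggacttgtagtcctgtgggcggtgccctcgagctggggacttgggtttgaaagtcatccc
Dll1: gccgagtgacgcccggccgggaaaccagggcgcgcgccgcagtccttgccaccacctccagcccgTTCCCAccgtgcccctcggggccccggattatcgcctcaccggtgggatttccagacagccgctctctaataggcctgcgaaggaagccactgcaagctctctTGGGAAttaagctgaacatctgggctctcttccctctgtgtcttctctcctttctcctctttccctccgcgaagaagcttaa
Trem3: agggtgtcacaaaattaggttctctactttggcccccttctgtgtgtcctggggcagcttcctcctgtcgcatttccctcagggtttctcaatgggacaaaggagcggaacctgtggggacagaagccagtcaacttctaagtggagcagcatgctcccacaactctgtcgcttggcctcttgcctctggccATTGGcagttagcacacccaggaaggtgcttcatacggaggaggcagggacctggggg
Peg3 holds TGACGTCA once and CCAAT in 2 places, Dll1 holds TGGGAA in 2 places, Zim1 holds it once, and Trem3 holds 1 CCAAT. Of 33469 promoter entries, 1.59% hold TGACGTCA in this window, 22.1% TGGGAA and 34.0% CCAAT. Of the 20 Notch genes, 16 matched, with 19 entries, of which 7 (36.8%) hold TGGGAA, 7 (36.8%) hold CCAAT and 0 hold TGACGTCA. A match describes these letters and is not a measured site.

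Of the retinoid genes, 2 fell. Aldh1a1, which makes retinoic acid from retinaldehyde, was at 10.7 to 46.0 CPM in naive males (median 14.5) and 2.24 to 10.1 CPM after stroke (median 3.98). The groups did not overlap, and the fall was 4.95-fold (log2 -2.31 ± 0.396 SE, edgeR adjusted p = 0.023, 11 of 14 fits). Cyp26b1, which breaks retinoic acid down, fell by 1.01 on the log2 scale in overlapping groups (adjusted p = 0.0445, 2 of 14 fits). They were 2 of 17 retinoid genes tested, in a list made after the values were seen, and none was called higher. Of all genes tested, 0.58% were called lower.

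**Figure D2:**
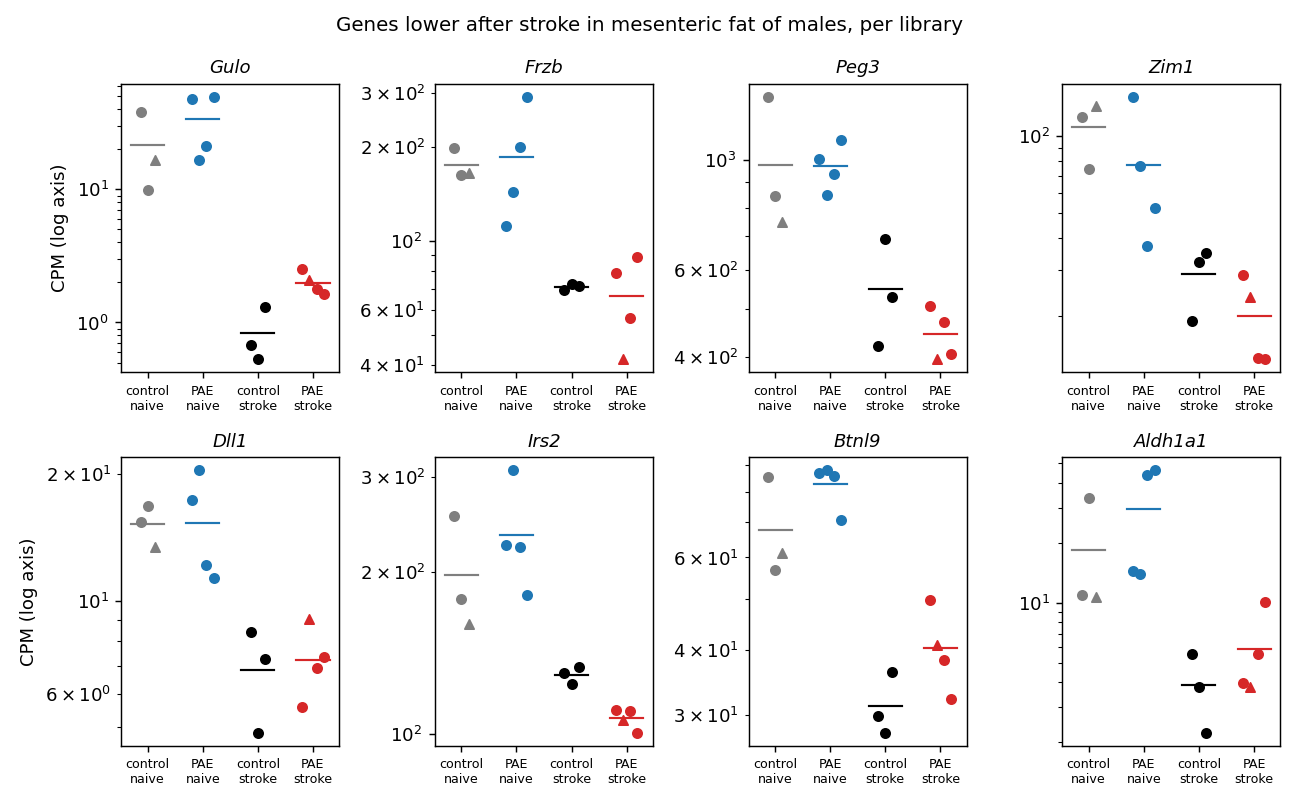
CPM (log axis) of 8 genes that were lower after stroke, by prenatal exposure and stroke status; each point is 1 male, lines are group means, and triangles are control naive male 3 and PAE stroke male 2. Gulo lies at 9.87 CPM or more in naive males and at 2.51 CPM or less after stroke, and none of the 8 genes has overlapping stroke and naive groups.

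Of 19 listed insulin signalling genes 2 were called lower, against 0.58% of all genes, and none higher (median log2 change -0.20). Irs2, the adaptor that carries the insulin receptor's signal to PI3 kinase, was at 160 to 308 CPM in naive males (median 222) and 101 to 133 CPM in stroke males (median 111). The groups did not overlap, and the fall was 1.88-fold (log2 -0.91 ± 0.141 SE, edgeR adjusted p = 0.0136, all 14 fits). Trib3, a pseudokinase that binds AKT and is induced by ATF4, fell by 1.06 on the log2 scale (adjusted p = 0.0445, 2 of 14 fits). Trib3 was also the only called member of 30 unfolded protein and integrated stress response genes, whose median was 0.26. Hsf1, the heat shock transcription factor, fell by 0.43 (adjusted p = 0.0377, 2 of 14 fits), 1 of 17 heat shock genes. Npas2, a relative of CLOCK that pairs with BMAL1, fell by 1.81 (adjusted p = 0.0328, 4 of 14 fits) and was the only called member of 21 clock genes; the time of day of dissection is not given.

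Among the rises that passed in all 14 fits, Trem3 was the largest. It encodes a receptor of myeloid cells, known from mice. Its level was 1.67 to 4.05 CPM in naive males (median 2.93) and 6.96 to 28.5 CPM in stroke males (median 9.89). No stroke library reached down to the naive range, and the rise was 4.40-fold (log2 2.14 ± 0.301 SE, edgeR adjusted p = 0.0136). The others, chosen after their values were seen, were smaller. Slc5a6, the transporter of biotin and pantothenate, rose by log2 0.84 ± 0.133 SE, and Tubg1, the gamma tubulin that nucleates microtubules, by 0.75 ± 0.119 SE. Cyrib and Ifrd2 rose by 0.81 and 0.67.

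Genes of triglyceride synthesis and of fatty acid entry into mitochondria rose singly, with no other member of their lists called. Dgat2, which adds the last fatty acid to triglyceride, was at 214 to 426 CPM in naive males (median 265) and 434 to 1268 CPM after stroke (median 681). The groups did not overlap, and the rise was 2.60-fold (log2 1.38 ± 0.261 SE, edgeR adjusted p = 0.0321, 5 of 14 fits). It was the only called member of 24 synthesis genes (18 positive, median 0.30). Cpt1b, the muscle-type carnitine palmitoyltransferase, was at 12.6 to 26.3 CPM (median 14.2) in naive and 23.9 to 79.1 CPM (median 45.9) in stroke males, with overlap. It rose by log2 1.49 ± 0.260 SE (edgeR adjusted p = 0.0243, 10 of 14 fits). It was the only called member of 30 fatty acid oxidation genes, 18 of which were negative, and of 11 thermogenic genes. Ucp1 was too low to be tested. Slc25a10, the mitochondrial dicarboxylate carrier, was chosen after its value was seen and rose by 1.12 (adjusted p = 0.0418, 4 of 14 fits).

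Sterol synthesis genes were mostly above 0. Of 24 tested, 23 were positive, with a median of 0.40 against 0.02 over all genes. Of the 24, 2 were called higher, against 0.32% of all genes. Mvk, mevalonate kinase, was at 8.84 to 12.2 CPM in naive and 13.2 to 18.6 CPM in stroke males, and Nsdhl, a sterol dehydrogenase, at 13.7 to 16.4 and 19.1 to 24.9 CPM. Neither overlapped between groups, and they rose by log2 0.60 ± 0.105 SE and 0.46 ± 0.0854 SE (edgeR adjusted p = 0.0245 and 0.0282, 9 and 7 of 14 fits). All 45 cytosolic ribosomal protein genes were positive (median 0.24), and none of them was called. Of 39 mitochondrial ribosome genes, a list made after the values were seen, 35 were positive. Mrpl12, Mrpl18 and Mrps34 were called higher, against 0.32% of all genes.

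Melanocortin peptides such as ACTH act on fat cells through G protein-coupled receptors, of which the ACTH receptor needs an accessory protein. Mc5r was at 1.10 to 3.83 CPM in naive males (median 1.91) and 2.51 to 58.1 CPM in stroke males (median 18.1). The ranges met only at the lowest stroke library, PAE stroke male 1. It rose 7.17-fold (log2 2.84 ± 0.540 SE, edgeR adjusted p = 0.0321), passed in 6 of 14 fits, and missed the threshold without the 2 libraries (log2 2.61, adjusted p = 0.0516; 4.04e-06 to 0.244 over all alternatives). Mrap, which carries the ACTH receptor to the cell surface, was at 5.54 to 12.3 CPM in naive (median 11.1) and 13.5 to 39.7 CPM in stroke males (median 29.5), without overlap. It rose by log2 1.28 ± 0.270 SE (edgeR adjusted p = 0.0436, 2 of 14 fits). The ACTH receptor gene Mc2r was at 70.8 to 151 CPM in naive and 52.7 to 164 CPM in stroke males and did not pass (log2 -0.45 ± 0.248 SE, adjusted p = 0.347). Mrap and Mc2r were named after their values were seen.

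Inflammatory rises were wide apart between animals. S100a9, a subunit of the neutrophil protein calprotectin, was at 0.0760 to 0.658 CPM in naive males (median 0.368) and 1.31 to 15.9 CPM in stroke males (median 1.77). The groups did not overlap, and PAE stroke male 1 stood alone, with at most 6.39 CPM in the other stroke males. The naive values rest on 1 to 12 counts, with 3 libraries at or under the floor of 3 counts. The rise was log2 3.41 ± 0.657 SE (edgeR adjusted p = 0.0328); it was 2.46 without PAE stroke male 1 and passed in 5 of 14 fits. Lcn2, the iron-sequestering lipocalin 2, was at 4.25 to 61.2 CPM in naive males (median 8.85) and 16.2 to 683 CPM in stroke males (median 90.4). The high naive value was control naive male 3, the lymphocyte-rich library. Lcn2 did not pass over all 14 animals (log2 3.45 ± 0.920 SE, adjusted p = 0.0875) and passed without the 2 libraries (log2 4.52, adjusted p = 0.0217; 0.00141 to 0.54 over all alternatives), where its groups of 6 no longer overlapped, as was so for 3.09% of all genes.

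All 23 acute phase genes tested were positive, with a median log2 change of 1.16, and S100a9 alone was called. Without the 2 libraries the median was 1.81 and 5 of 24 were called: Lcn2, S100a8, S100a9, the fibrinogen chain gene Fgg and the metallothionein gene Mt1. Cell division genes were positive in 32 of 33 (median 1.22) with none called; without the 2 libraries the median was 1.99 and Ccne1, the G1 cyclin E1 (log2 2.19), and its transcription factor E2f1 (log2 1.39) passed. Macrophage markers summed to 1541 to 5296 CPM in stroke males and to 1076 to 1661 CPM in naive males other than control naive male 3, which had 3926 CPM. Of 14 macrophage markers 12 were positive, and none was called until the 2 libraries were left out, when Clec10a and Gpnmb passed. Leaving out control naive male 3 alone gave medians of 1.33 for acute phase and 1.85 for cell division genes, the highest of the 14 such fits. As that animal was 1 of the 2 left out, the calls gained without them are not separate support. Neutrophil markers summed to 30.6 to 219 CPM in naive and 109 to 263 CPM in stroke males. The part of these cells in the acute phase and cell division values was not tested.

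**Figure D3:**
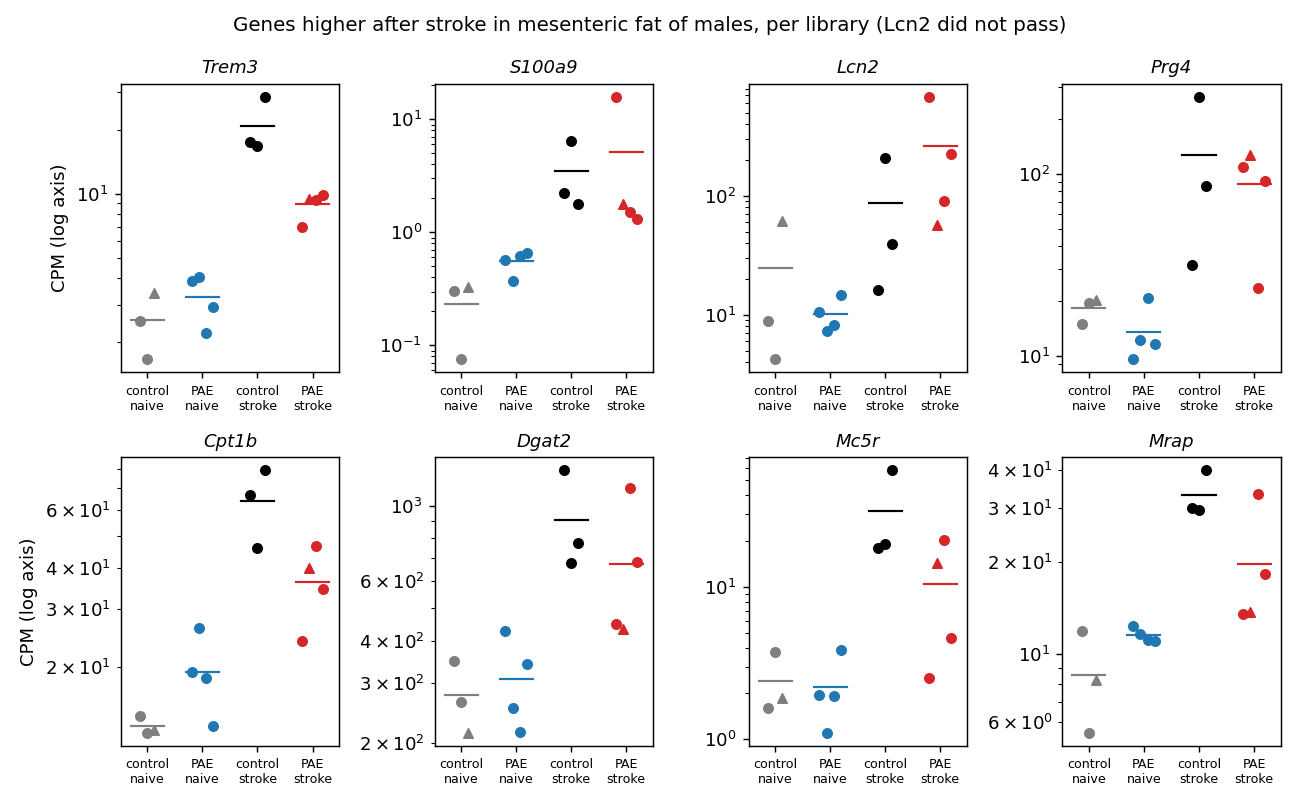
CPM (log axis) of 8 genes that were higher after stroke, by prenatal exposure and stroke status; points, lines and triangles are as in the plot of genes that fell. Trem3, S100a9, Prg4, Dgat2 and Mrap do not overlap between stroke and naive males, while Lcn2, with 61.2 CPM in control naive male 3, did not pass the test.

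Of the remaining large increases, Prg4, the lubricin of mesothelial and joint surfaces, was at 9.59 to 20.7 CPM in naive males (median 15) and 23.5 to 266 CPM in stroke males (median 91.1). There was no overlap, and it rose 6.67-fold (log2 2.74 ± 0.447 SE, edgeR adjusted p = 0.0176, 12 of 14 fits). The 10 mesothelial markers summed to 517 to 1505 CPM in naive and 444 to 2221 CPM in stroke males, and none of the 9 tested was called; their part in Prg4 was not tested. Mlph, the melanophilin that links vesicles to myosin, rose by 1.98 (adjusted p = 0.0256, 10 of 14 fits) and Pigz, a mannosyltransferase of GPI anchor synthesis, by 1.91 (0.0397, 4 of 14). Slc6a13, a GABA and taurine transporter, rose by 1.53 (adjusted p = 0.0418, 4 of 14 fits) and lost its call without the 2 libraries (log2 1.33, adjusted p = 0.0611; 0.000403 to 0.255 over all alternatives). Fanca, a DNA repair gene of the Fanconi pathway, rose by 1.37 (adjusted p = 0.0309, 4 of 14 fits). Of the remaining large decreases, Ctnnd2, a neuronal delta catenin, fell by 2.77 (adjusted p = 0.0256, 10 of 14 fits). Stum and Lix1 fell by 2.06 and 2.05 (adjusted p = 0.0424 and 0.0445) and passed in 2 of 14 fits each. Akr1c3, an aldo-keto reductase, fell by 1.94 (adjusted p = 0.0397, 5 of 14 fits). Of 8 nerve and glia markers tested, 8 were negative (median -1.14), none was called, and their sum was 650 to 1799 CPM in naive and 416 to 1046 CPM in stroke males. Its part in the fall of Ctnnd2 and Gprin3 was not tested. Smooth muscle and pericyte markers were negative in 10 of 10 (median -1.63) with none called; 3 of the naive libraries held 9002 CPM or more. No marker of adipose stroma, lymphatic endothelium, plasma cells, lymph node stroma, mast cells, erythrocytes, pancreas, intestine or liver was called, and neither was one of B, T or NK cells.

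The hallmark adipocyte genes did not pass. Adipoq, the adiponectin gene, was at 2754 to 6184 CPM in naive males (median 4965) and 1875 to 4201 CPM after stroke (median 2689; log2 -0.59 ± 0.229 SE, edgeR adjusted p = 0.192). Lpl, lipoprotein lipase, was at 4726 to 11936 CPM and 3258 to 7407 CPM (log2 -0.65, adjusted p = 0.207). Leptin (Lep) was at 174 to 1707 CPM and 308 to 1472 CPM (log2 0.72 ± 0.518 SE, adjusted p = 0.485). The lipases Pnpla2 and Lipe had log2 values of -0.52 and -0.04, Angptl4, an inhibitor of Lpl, -0.62, and the pyruvate dehydrogenase kinase gene Pdk4 -0.49. Haptoglobin (Hp) was at 0.63 and the desaturase gene Scd at 0.36 ± 0.832 SE. Fkbp5, a glucocorticoid-induced chaperone, was at 49.8 to 119 CPM in naive and 53.4 to 301 CPM in stroke males (log2 1.12 ± 0.316 SE, adjusted p = 0.0975). None of 22 lipolysis, 14 fatty acid uptake, 15 adipokine, 16 adipogenic factor, 23 glucocorticoid response, 22 cytokine, 19 interleukin 6 family, 34 interferon, 10 MHC class II, 22 complement, 33 matrix, 25 immediate early or 25 antioxidant genes was called.

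Whether the response differed with prenatal exposure was tested as an interaction. No gene passed in edgeR (0%), with 1793 genes at an unadjusted p under 0.05; DESeq2 called 129, 9 with a more positive response in PAE males and 120 with a more negative one. Respiratory chain genes stood on opposite sides of 0. Of 57 nuclear-encoded oxidative phosphorylation genes, 57 were positive in control males (median 0.53) and 2 in PAE males (median -0.21). All 57 differences were negative, against 44.8% of all genes. Of the 57, 54 had an unadjusted p under 0.05, against 9.72% of all genes. None passed in edgeR (smallest adjusted p = 0.318), and DESeq2 called 26, against 0.699% of all genes. Without the 2 libraries the medians were 0.43 and -0.16 and 57 differences were still negative.

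The summed level of the 57 genes was 5046 to 6488 CPM in control naive males and 7659 to 9032 CPM in control stroke males. In PAE males it was 7270 to 8500 CPM when naive and 5624 to 7956 CPM after stroke. The control naive males lay below both the PAE naive males and the control stroke males without overlap. Ndufs3, a subunit of complex I, was at 36.9, 38.0 and 32.9 CPM in the control naive and 65.0, 52.8 and 67.8 CPM in the control stroke males. In PAE males it was at 54.6, 52.8, 49.4 and 45.3 CPM when naive and 36.4, 43.5, 51.0 and 44.3 CPM after stroke. Its difference between exposures was log2 -0.99 ± 0.183 SE (edgeR adjusted p = 0.318), as it was -1.08 for the ATP synthase gene Atp5mc3, -0.86 for the mitochondrial iron-sulphur gene Cisd1 and -0.87 for the molybdopterin synthase gene Mocs2. The unnamed locus LOC103694176 completed the 5 smallest p-values, at -1.48.

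Other mitochondrial and fat cell lists lay the same way. Citrate cycle genes were positive in 18 of 20 in control males and in 2 of 20 in PAE males, and fatty acid oxidation genes in 25 and 3 of 30. Their differences between exposures were negative in 20 of 20 and 28 of 30, against 44.8% of all genes. The 22 lipolysis genes had medians of 0.24 and -0.64, and the 12 adipocyte markers 0.27 and -0.48, with 12 of 12 differences negative. The summed adipocyte markers moved with these values, and their part in them was not tested. The mean nuclear rRNA share was lower after stroke in both exposures, at 17.7% and 15.3% in naive and stroke controls and at 11.7% and 1.55% in naive and stroke PAE males. Acute phase genes had medians of 1.59 in control and 1.73 in PAE males. MHC class II genes had -3.19 and 0.93, and -0.73 and -0.47 without the 2 lymphocyte-rich libraries; interferon response genes had -0.71 and 0.64, and -0.13 and 0.78 without them.

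**Figure D4:**
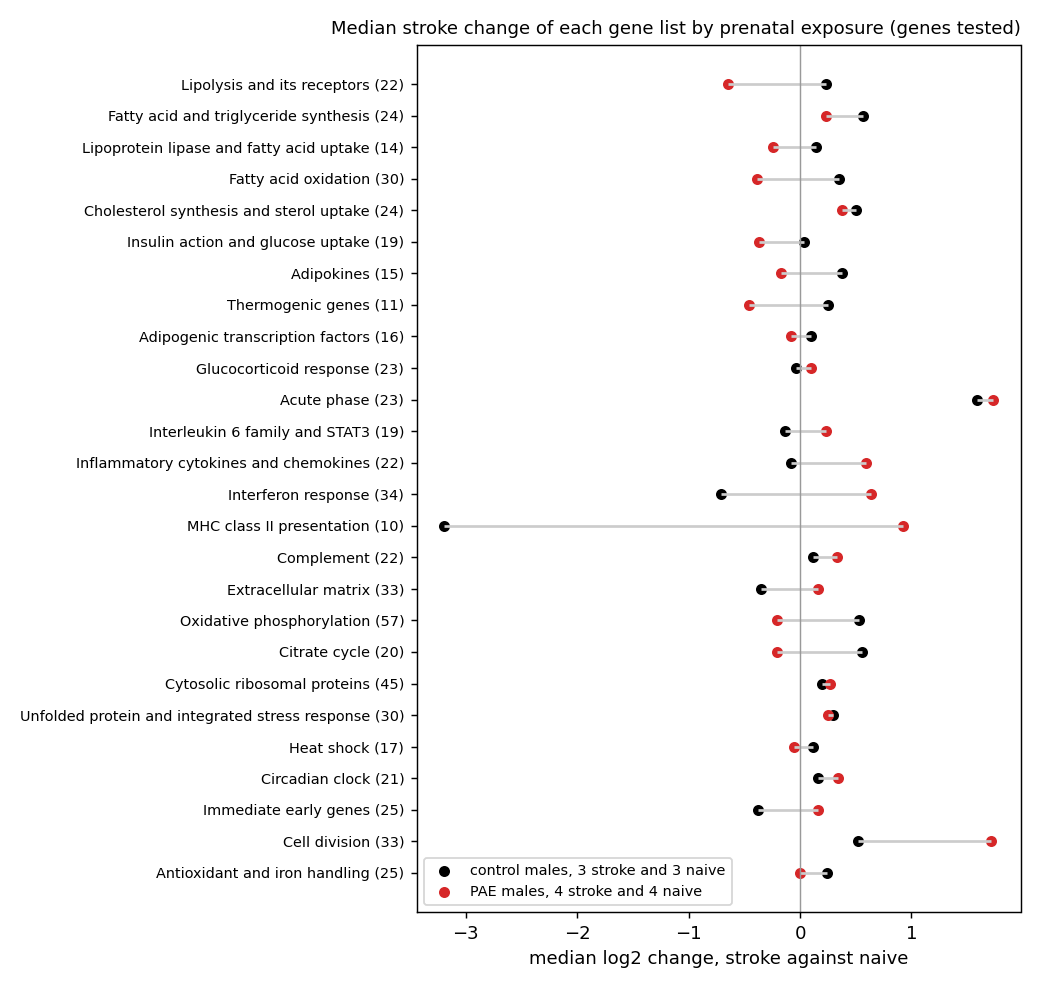
Median log2 change after stroke of 26 gene lists in control males (black, 3 stroke and 3 naive) and PAE males (red, 4 and 4); the number of genes tested follows each name, and the lines join the 2 medians. Oxidative phosphorylation lies at 0.53 and -0.21 and acute phase at 1.59 and 1.73, while the MHC class II gap closes to -0.73 and -0.47 without the 2 lymphocyte-rich libraries.

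The same contrast in females, 8 stroke against 8 naive animals of the same 4 treatments, gave values from other libraries. There 950 of 17072 genes passed (5.56%), 588 higher (3.44%) and 362 lower (2.12%). Of the 166 male calls 157 were tested in females; all 157 had the same sign, and 79 passed in the same direction, 39 higher and 40 lower. These were 47.6% of the male and 8.32% of the female calls. The share of all tested genes with the same sign in both sexes was not computed. Gulo fell by 3.34 in females (adjusted p = 0.00193), Mc5r rose by 2.93 (0.0163), Trem3 by 2.05 (0.00404) and Cpt1b by 1.85 (1.22e-07). Dll1, Nrarp, Peg3, Frzb and Irs2 fell there too, by 0.81, 1.0, 0.90, 1.27 and 0.66. Igf2 was at -0.20 (adjusted p = 0.608), Aldh1a1 at -0.91 (0.206) and Fanca at 0.37 (0.294).

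The sex difference itself passed for no gene in edgeR (0%), with 1012 at an unadjusted p under 0.05, and for 13 in DESeq2. Among the smallest p-values were those of Fgd5, which activates CDC42, with a male minus female difference of -0.65 ± 0.138 SE (edgeR adjusted p = 0.35), Alpg, a phosphatase gene, with -1.58, Htr2a, the serotonin receptor, with -2.61 (-1.30 in males and 1.0 in females), and LOC100911864 with -1.04. For Igf2 the difference was -1.0 ± 0.326 SE (adjusted p = 0.574) and for Prg4 1.5 ± 0.550 SE (0.674). Oxidative phosphorylation genes were called higher in 28 of 57 in females (median 0.33) and in none in males (median 0.09); the median difference was -0.20, and none of the 57 differences passed in edgeR or DESeq2.

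**Figure D5:**
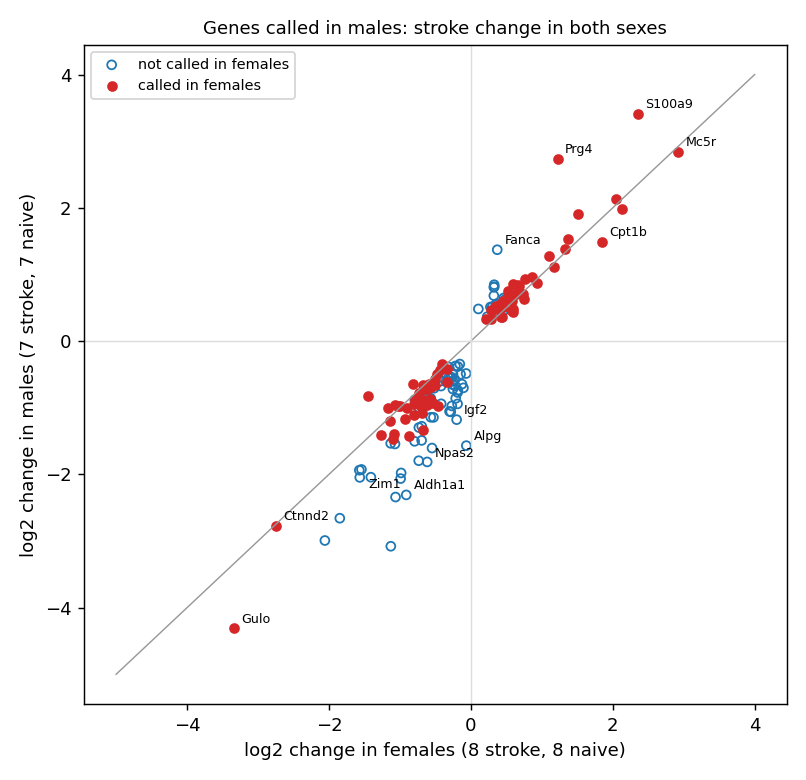
Log2 change after stroke in females (horizontal axis) and males (vertical axis) of the 157 genes called in males and tested in both sexes; filled points were called in females too, and the line marks equal change. All 157 share their sign, from Gulo at -3.34 and -4.31 to S100a9 at 2.35 and 3.41; the genes were chosen on the male values.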

How the data were processed

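RNA was depleted of rRNA and sequenced as stranded paired reads, per the labels' protocols. Per the submitters' processing notes, Trimmomatic, HISAT2, HTSeq and DESeq2 were used with the rat assembly rn7; versions and settings are not given in the sources used here. The deposited files hold the authors' raw read counts for 34322 genes, listed by symbol. Samples were grouped by their titles. The members, the 26 gene lists, the 18 marker lists and 5 lists chosen after values were seen were all set with earlier results of these data known.

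From the counts, 76 nuclear and 2 mitochondrial rRNA genes were left out before TMM scaling. edgeR 4.0.16 (R 4.3.3) was used with filterByExpr (minimum count 10), a robust quasi-likelihood fit, two-sided tests and Benjamini-Hochberg adjustment over all genes tested; a call is an adjusted p under 0.05. CPM are per M of the TMM-scaled library. The median SE was 0.157 (log2) for genes averaging log2 CPM 1 or more. Males were fitted with exposure as a covariate; exposure and sex differences were contrasts of group means. Named by rule were the 10 largest increases and decreases above that level with 1 sign in both exposures, up to 3 called members per list, 12 fixed genes and the 5 smallest p-values of each difference; others are said to be chosen later. Alternatives were DESeq2 1.42.0, RLE scaling, no filter, rRNA genes kept, covariates for rRNA share and lymphocyte markers, a replicate block, no exposure covariate, all 30 libraries, 1 exposure only and leaving out libraries. Replicate pairs were checked for duplicates (chi-square per degree of freedom 17.3 to 138 over 18 pairs; copies would give about 0). On simulated data (18230 genes), the male fit called 20%, 72%, 86% and 92% of genes changed 1.5-, 2-, 3- and 4-fold, and 7 calls (4.93%) were false. The changed genes were drawn from those with higher counts, so these rates do not cover genes with low counts. The simulation held no exposure effect and no lymphocyte-rich libraries. Mitochondrial mRNA and liver were not used here, and some genes are not reported here.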

Additional observations from a re-analysis of the deposited data

Results flagged for a closer look

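Within a group of 4 PAE males, 1 library stood far from the others in 9 of 114 groups of values examined; chance flags about 1 in 20. S100a9 was at 15.9 CPM in PAE stroke male 1 and at 1.31 to 1.77 CPM in the other PAE stroke males. Slc6a13 was at 3.87 CPM in PAE naive male 2, against 1.86 to 2.12 CPM in the other 3. Trib3 was at 3.93 CPM in PAE stroke male 3, below 4.85 to 4.93 CPM. Adipoq and Lpl were highest in PAE naive male 1, at 6184 CPM (others 4885 to 4999) and 11936 CPM (others 8202 to 8644). Scd was at 3002 CPM in PAE stroke male 3 and at 52.5 to 539 CPM in the other 3. The summed B cell markers were at 1147 CPM in PAE stroke male 2, and the plasma cell markers at 237 CPM there (others 74.7 to 81.8) and at 367 CPM in PAE naive male 2 (others 105 to 137). The causes were not tested.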

How the results depend on the processing

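The count of 166 male calls became 1137 with DESeq2 (165 of the 166 shared), 100 with no filter, 45 with the nuclear rRNA share as covariate, 443 without the 2 lymphocyte-rich libraries, 1286 when all 30 libraries shared 1 fit (163 shared) and 0 in control males or PAE males alone, where 2481 and 2665 genes had an unadjusted p under 0.05. The share of higher calls was 35.5%, against 51.7% without the 2 libraries and 52.0% with all 30. RLE scaling gave 166, kept rRNA genes 162, no exposure covariate 214 and the lymphocyte covariate 216. The title numbers were not taken to pair the animals. Correlations of the 7 pairs ran from -0.33 to 0.26, 4 were over 0.1, and 3 pairs correlated best with their own number. So few pairs cannot decide whether the animals were paired. The replicate block gave 60 calls, 44 of them among the 166. Leaving out 1 library gave 35 to 310 male calls and 551 to 1166 female calls (950 with all female libraries). It also gave MHC class II medians of -1.70 to 0.56 and clock medians of 0.19 to 0.50 in males. DESeq2 gave 1747 female calls, 129 exposure differences and 13 sex differences, against 0 for both differences in edgeR. In control males alone the list medians became 0.23 for lipolysis, 0.14 for fatty acid uptake, 0.37 for fatty acid oxidation, 0.030 for insulin action, 0.27 for thermogenic genes, -0.15 for the interleukin 6 family, -0.72 for interferon response, -3.20 for MHC class II, 0.52 for oxidative phosphorylation, 0.55 for the citrate cycle and 0.16 for the clock. In PAE males alone they became -0.65 for lipolysis, -0.24 for fatty acid uptake, -0.40 for fatty acid oxidation, -0.17 for adipokines, -0.47 for thermogenic genes, 0.92 for MHC class II, -0.21 for oxidative phosphorylation and -0.21 for the citrate cycle. Sign changes among named genes were all of genes that did not pass: Lep at -0.083 in PAE males alone, Scd at -0.50 under the block and -0.67 to 0.72 leaving out 1 library, and Lipe at 0.073 with the rRNA covariate, 0.014 with the lymphocyte covariate, 0.019 with all 30 libraries, 0.46 in control males alone and -0.14 to 0.075 leaving out 1 library. The causes were not tested. Counts of 3 or fewer in a library limit S100a9.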
